A study of Mus musculus with 6 samples.

Results

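The cells described here were CD45+ cells from mouse liver metastasis with a high mean score of Trem2, Spp1, Ccl24 and Sdc4 and few transcripts of Kupffer cell or T cell genes. They were chosen by measured values, and a cell could pass without a UMI of all 4 genes. In the deposited scores, where each gene was scaled to an SD of 1 over the cells of a site, the mean of the 4 genes had to lie above 1.5, the mean of Clec4f and Vsig4 below 1 and the mean of Cd3e and Cd3g below 1. Of the 20663 cells from micrometastasis and macrometastasis, 538 passed, and 23008 cells were profiled in all. They are called Trem2 Spp1 cells below, and the values of the rule genes in them are a description without a test.

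Trem2 is a lipid-sensing receptor of myeloid cells that signals through the adaptor Tyrobp, and it is known from lipid-laden macrophages of injured liver, fat tissue and tumours. Spp1 encodes osteopontin, a secreted phosphoprotein that binds integrins and CD44 and is a common product of macrophages in scars and tumours. Ccl24 encodes eotaxin-2, a chemokine for eosinophils, Sdc4 a cell-surface heparan sulphate proteoglycan, and Tgm2 a transglutaminase that crosslinks proteins. The liver also holds Kupffer cells, the resident macrophages marked by Clec4f and Vsig4, and it receives Ly6c2-positive monocytes from blood, which can turn into macrophages in the tissue.

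Balb/c mice received an intracardiac injection of 4TO7 (also written 4T07) mammary tumour cells of mouse origin, which carried a control vector (Ctrl) or a Tim3 knockdown (Tim3-KD). The knockdown was made with a short hairpin RNA in the tumour cells only, so the mice and their immune cells had the normal gene. Liver pieces were taken at day 3 (micrometastasis and adjacent tissue free of tumour) and day 12 (macrometastasis), CD45+ cells were sorted and single-cell 3′ RNA libraries were made, each from a pool of 2 mice. Each of the 6 groups was 1 library, so no comparison below has a replicate, none was tested, and every interval is a 95% interval for counting error only. The ages of the mice are not given in the sources used here.

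Depth differed between the 4 metastasis libraries. Their median number of UMIs (transcript molecules counted) per cell was 6300 to 9359.5, over 4913 to 5502 cells, and their totals ran from 43459585 to 79971789 UMIs. A level is given as CPM, the UMIs of a gene per 1000000 UMIs of the same cells, taken over the sum of the cells of a library. Between any pair of these libraries 5 to 11 cell barcodes were shared, 47 barcodes in all were found in more than 1 library, and 4 Trem2 Spp1 cells carried such a barcode. The authors removed doublets before deposit, and none were removed here.

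Trem2 Spp1 cells were most frequent in micrometastasis of Ctrl tumours. In that library 264 of 5106 cells passed the rule, which is 5.17% (exact Clopper-Pearson interval 4.58 to 5.81%). In micrometastasis Tim3-KD 88 of 5142 cells passed, 1.71% (1.37 to 2.10%). In macrometastasis the numbers were 78 of 4913 cells in Ctrl, 1.59% (1.26 to 1.98%), and 108 of 5502 in Tim3-KD, 1.96% (1.61 to 2.37%). Counting only cells with a UMI of at least 2 of the 4 genes, the macrometastasis shares were 1.16% and 1.58%. The intervals of Ctrl and Tim3-KD did not overlap in micrometastasis and did overlap in macrometastasis. The scores of the 2 sites were scaled apart, so a share at one site is not on the scale of the other. With 1 library a group, a difference in the number of such cells cannot be told apart from a difference between the pools of mice or the pieces taken.

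**Figure D1:**
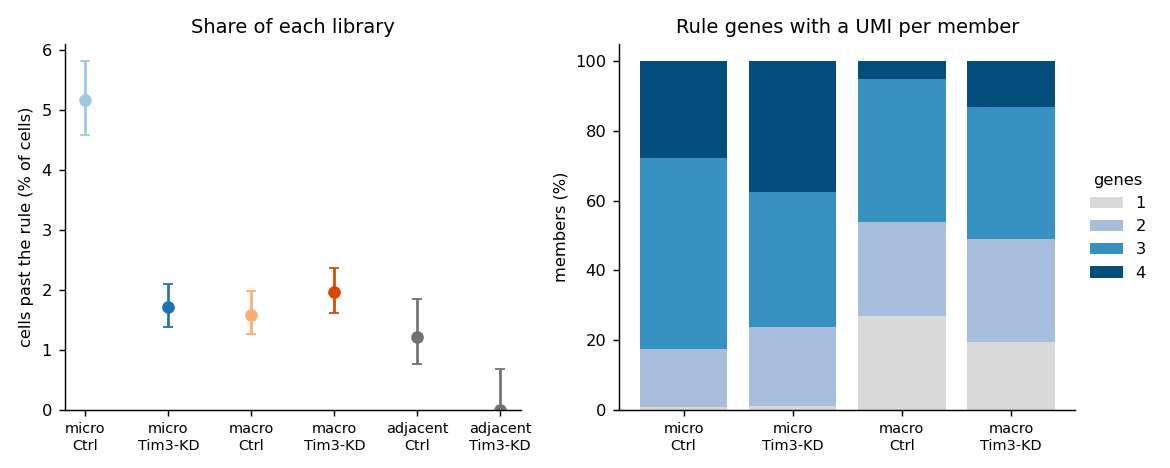
Left, cells past the rule as a percentage of each library's cells, with exact 95% intervals for counting error, in 6 libraries of 1 a group (adjacent tissue in grey). Right, the percentage of these cells with a UMI of 1, 2, 3 or 4 rule genes; micrometastasis Ctrl stands highest on the left at 5.17%, and cells with 1 rule gene make up a visible part only in macrometastasis (21 of 78 and 21 of 108).

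In micrometastasis the rule genes were found together in the same cells, and in macrometastasis less so. At least 2 of the 4 genes had a UMI in 262 of 264 cells of micrometastasis Ctrl (99.2%) and 87 of 88 cells of micrometastasis Tim3-KD (98.9%). In macrometastasis this held for 57 of 78 cells in Ctrl (73.1%) and 87 of 108 in Tim3-KD (80.6%). All 4 genes had a UMI in 73, 33, 4 and 14 cells, in the order micrometastasis Ctrl, micrometastasis Tim3-KD, macrometastasis Ctrl and macrometastasis Tim3-KD, which is kept below. Trem2 was found in 86.7%, 89.8%, 64.1% and 71.3% of the cells. Spp1 was found in 53.0%, 73.9%, 48.7% and 52.8%. The most frequent combination in micrometastasis Ctrl was Trem2, Ccl24 and Sdc4 without Spp1, in 92 cells. The median cell held 10744.5, 7689.5, 12409 and 12163.5 UMIs.

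The cells that passed on 1 gene stood apart. Spp1 was the only rule gene with a UMI in 17 cells of each macrometastasis library, and in 1 cell of each micrometastasis library. The 21 cells with 1 rule gene in macrometastasis Ctrl summed to 6411 CPM over the 9 neutrophil precursor markers and to 3721 CPM over the 5 mature neutrophil markers held, against 398 and 618 CPM in the 57 cells with 2 genes or more. In macrometastasis Tim3-KD the same sums were 6239 and 1930 CPM, against 227 and 519 CPM. A macrophage marker had a UMI in 47.6% and 66.7% of these 1-gene cells, against 98.2% and 97.7% of the others. These 1-gene cells thus go against the name macrophage as a group, and the counts of genes and the main levels in macrometastasis are also given without them.

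Over all Trem2 Spp1 cells, the 1-gene cells included, macrophage genes were present but not uniform. Csf1r, the receptor for the macrophage growth factor, had a UMI in 249 of 264, 68 of 88, 55 of 78 and 82 of 108 cells. C1qa, a subunit of the complement component C1q that tissue macrophages make, was found in fewer, in 56, 39, 38 and 57 cells. Among the macrometastasis cells with at least 2 rule genes, Csf1r was found in 51 of 57 and 77 of 87 cells and C1qa in 36 and 52. Ly6c2, a monocyte gene, was found in 166, 50, 17 and 32 cells. The monocyte list summed to 3940, 5270, 1345 and 2900 CPM, against 1553, 1795, 1608 and 2661 CPM in the cells outside the rule, so it was above them in micrometastasis and below them in macrometastasis Ctrl. Of the 8 Kupffer markers, Clec4f and Vsig4 were held low by the rule. The other 6 summed to 27.5, 319, 111 and 59.2 CPM and had a UMI in 15.5%, 47.7%, 39.7% and 25.9% of the cells, against sums of 8645 to 11749 CPM in Kupffer-rule cells, which were chosen by Clec4f and Vsig4. Markers of T cells summed to at most 24.9 CPM, which the limit on Cd3e and Cd3g set in part. Those of hepatocytes summed to 33.9, 105, 354 and 240 CPM (2 genes held in micrometastasis and 4 in macrometastasis). Markers of bile duct cells are not in these matrices.

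The threshold cut through a continuous range. Within 0.2 score units above it lay 35, 19, 24 and 23 of the cells, and within 0.2 below it 43, 18, 19 and 27 cells. Just inside and just outside, Trem2 was at 192 and 220 CPM in micrometastasis Ctrl, at 448 and 287 CPM in micrometastasis Tim3-KD, at 216 and 121 CPM in macrometastasis Ctrl and at 150 and 138 CPM in macrometastasis Tim3-KD. Cells high in the rule genes that were left out for Clec4f and Vsig4 numbered 35, 8, 42 and 37.

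Among the rule genes, Ccl24 varied most between the libraries. It was at 3714, 1247, 437 and 224 CPM, highest in micrometastasis Ctrl. Trem2 was at 385, 432, 222 and 288 CPM, within a narrower range. Spp1 was at 834, 1246, 768 and 525 CPM. Sdc4 was at 710, 462, 416 and 417 CPM, with the macrometastasis libraries level. Tgm2, a listed marker of these cells that the rule did not use, was at 619, 234, 72.2 and 130 CPM and so followed Ccl24 in being highest in micrometastasis Ctrl. In the cells outside the rule, Spp1 was at 25.2, 27.6, 16.8 and 18.1 CPM and Trem2 at 25.3, 13.7, 11.5 and 13.1 CPM. Scores at the cap of 10 give lower bounds, and 15 of the 300 cells with an Spp1 UMI had one. No score of Trem2, Ccl24, Sdc4 or Tgm2 in these cells was at the cap.

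**Figure D2:**
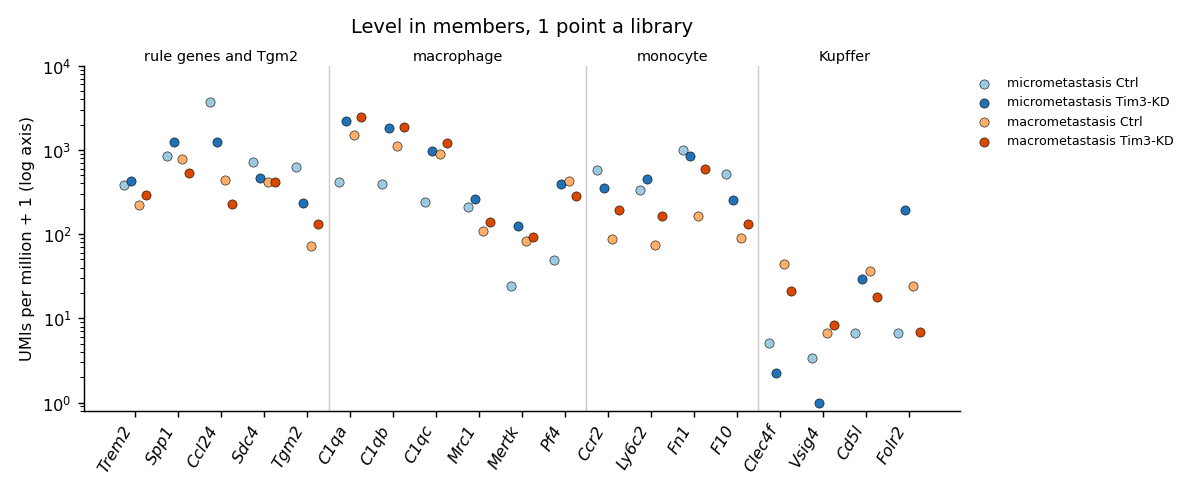
Level of 19 genes in Trem2 Spp1 cells as CPM plus 1 on a log axis, 1 point for each of the 4 libraries, grouped as rule genes and Tgm2, macrophage, monocyte and Kupffer genes. Ccl24 and Tgm2 are highest in micrometastasis Ctrl (3714 and 619 CPM), C1qa is lowest there (419 CPM), and Folr2 reaches 195 CPM in micrometastasis Tim3-KD against 5.71 CPM in Ctrl.

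The first comparison asks how Trem2 Spp1 cells differed at the micrometastasis stage when the tumour cells carried less TIM3. In Tim3-KD the cells held more of the complement C1q genes, of several chemokines and of inflammatory genes. They held less of the MHC class II genes and of Tgm2. Of 1410 genes with at least 50 UMIs over both libraries, 170 were at least 2-fold higher in Tim3-KD (12.1%) and 124 at least 2-fold lower (8.79%). The median log2 ratio of all of them was 0.09. For 144 of the higher and 117 of the lower genes no single cell gave over 20% of the UMIs in the library where the gene was higher. All counts and ratios in this comparison describe 2 libraries of 264 and 88 cells.

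All 3 C1q genes were at least 2-fold higher in Tim3-KD. C1qa stood at 419 CPM with Ctrl and 2226 CPM with Tim3-KD tumours, which gives 5.31 as their ratio (4.94 to 5.71). C1qb was at 395 and 1836 CPM and C1qc at 240 and 978 CPM. The 3 genes encode the chains of 1 protein and lie next to each other on chromosome 4 (GRCm38, minus strand), with C1qb at 136880129 to 136886187, C1qc at 136889804 to 136893065 and C1qa at 136895917 to 136898803. More cells also held a C1qa UMI, 21.2% in Ctrl and 44.3% in Tim3-KD. After each cell had been thinned to 1500 UMIs the shares were 11.4% (7.80 to 15.8%) and 42.0% (31.6 to 53.0%). In the B-rule cells of the same libraries (mean score of Cd79a, Cd79b and Ms4a1 above 1), which should lack C1qa, the thinned shares were 1.21% of 660 and 0 of 78 cells, at median depths of 3562 and 4289.5 UMIs. In monocyte-rule cells, defined below, C1qa was also higher in Tim3-KD, at 3.20 and 18.8 CPM. In Kupffer-rule cells it was not higher. Of the other complement genes, C3ar1, Cfb and Cfp did not reach 2-fold.

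The 4 genes of highest ratio were Cd163, Fcna, Ltc4s and Folr2. Folr2, a folate receptor, was at 5.71 CPM in Ctrl, in 8 cells, and at 195 CPM in Tim3-KD, in 30 cells. Cd163, the scavenger receptor for haemoglobin, was at 0.672 and 66.9 CPM, but 54.5% of its UMIs in Tim3-KD came from 1 cell. Fcna, a ficolin of the lectin complement pathway, was at 1.68 and 98.6 CPM. Ltc4s, which makes leukotriene C4, was at 4.03 CPM and at least 209 CPM, as 11 of its 44 cells were at the cap. Mertk, which was not among the 10 genes of highest ratio and is a receptor for the uptake of dead cells, was at 23.2 and 124 CPM.

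Of 15 chemokine genes tested, 7 were at least 2-fold higher (Ccl6, Ccl7, Ccl8, Cxcl1, Cxcl9, Cxcl10 and Pf4) and 1 lower (Ccl5), with a median log2 ratio of 0.90. Ccl6, a macrophage chemokine, was at 1544 and 4269 CPM. Pf4, platelet factor 4, was at 48.4 CPM and at least 388 CPM. Ccl8, a monocyte chemoattractant, was at no less than 5.04 CPM in 5 cells and no less than 119 CPM in 25 cells, as 2 and 17 of these cells were at the cap. Cxcl10 was at 50.4 and 110 CPM, but a mean over cells gave a log2 ratio of -0.085. Of 8 inflammatory genes tested, 4 were higher (Il1a, Tnf, Acod1 and Saa3). Saa3, an acute-phase protein, was at 323 and 1469 CPM. Il1b was in the other direction, at 1730 and 1161 CPM, under 2-fold.

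Genes of repair and lipid handling went both ways. Chil3, a chitinase-like protein, was at 702 and 2414 CPM. Tgm2 was at 619 and 234 CPM, a ratio of 0.378 (0.324 to 0.438), and its thinned share was 44.7% (38.6 to 50.9%) and 20.5% (12.6 to 30.4%), against 0.455% and 1.28% of B-rule cells. Vegfa, the vascular growth factor, was at 142 and 62.1 CPM, and Igf1, insulin-like growth factor 1, at 39.6 and 7.30 CPM. Of the lipid-associated list, Ctsl, a lysosomal protease, was at 457 and 2607 CPM, while the fatty acid-binding protein gene Fabp5 was at 470 and 231 CPM. Of the hypoxia list, 3 of 6 genes were at least 2-fold lower (Ero1l, Egln3 and Ankrd37) and none higher.

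MHC class II genes, which present antigen to CD4 T cells, were lower in Tim3-KD. Of 6 tested, 5 were at least 2-fold lower (H2-Aa, H2-Ab1, H2-Eb1, H2-DMb1 and Ciita) and the median log2 ratio was -1.25. H2-Aa stood at 4186 and 1571 CPM, which gives 0.375 as the ratio (0.354 to 0.397). The same gene was at 600 and 31.4 CPM in monocyte-rule cells and at 1126 and 237 CPM in the cells outside the rule, while in Kupffer-rule cells it was at 2087 and 2084 CPM. B-rule cells, whose type is rich in these genes, numbered 660 in Ctrl and 78 in Tim3-KD, and the B cell gene Ighm was at 29.9 and 7.30 CPM in the Trem2 Spp1 cells. The dendritic cell list summed to 66.2 CPM in 33.0% of the cells and 38.9 CPM in 14.8%, and its 1 gene tested, Itgax, an integrin chain that macrophages can also carry, was at 58.4 and 15.8 CPM. The part of B cell and dendritic cell transcripts in the result was not tested. Batf3, a transcription factor of dendritic cells and of some macrophages, was at 143 CPM in 154 cells and at 21.9 CPM in 15 cells. Ltb, lymphotoxin beta, was at 47.4 and 4.87 CPM. Havcr2, the gene of TIM3 itself, was at 64.8 and 28.0 CPM in these immune cells, in which it had not been targeted.

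Markers of other cells moved with the comparison. Of the Kupffer list, Folr2 and Cd163 were the 2 genes tested and both were higher in Tim3-KD (median log2 ratio 5.69), and the 6 genes that the rule did not use summed to 27.5 and 319 CPM, in 15.5% and 47.7% of the cells. Their part in the higher C1q levels was not tested. Of the mature neutrophil markers, 4 of 5 tested were at least 2-fold higher in Tim3-KD, and their sum over the held genes was 232 and 461 CPM. The neutrophil precursor markers summed to 129 and 409 CPM, and all 3 tested were higher (Elane, Prtn3 and Ctsg), each of them a granule protease. Prtn3 was at 87.3 and 267 CPM, in 104 and 43 cells. In Tim3-KD 1 cell held 90.2% of the UMIs of Elane, 47.5% of those of Prtn3 and 70.7% of those of Ctsg. The monocyte list summed to 3940 and 5270 CPM. Alb, the hepatocyte gene for albumin, was at 25.2 and 76.7 CPM. The part of these markers in the results was not tested either.

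**Figure D3:**
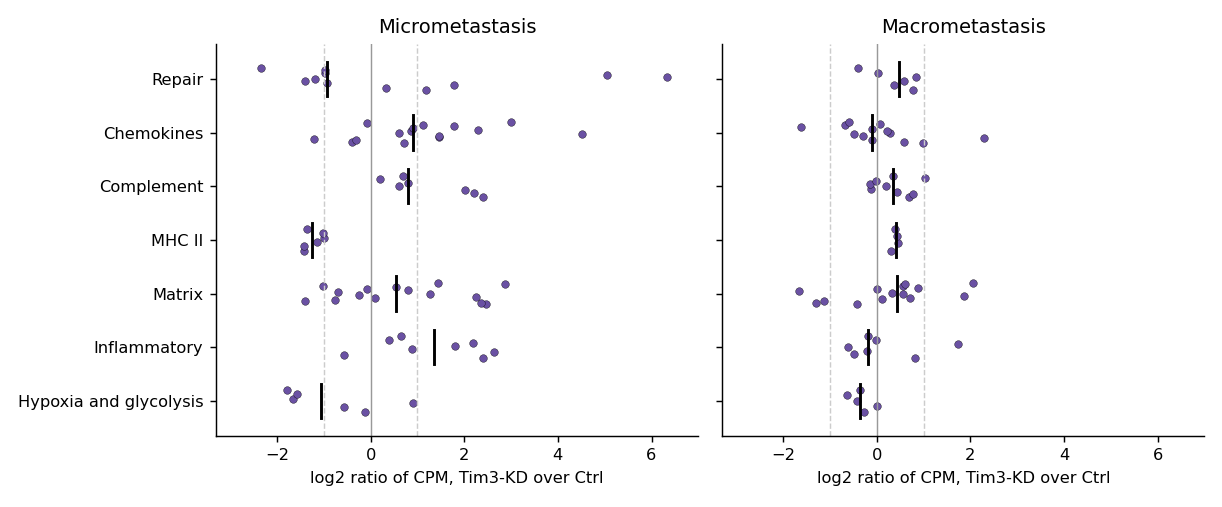
Log2 ratio of CPM in Trem2 Spp1 cells, Tim3-KD over Ctrl, for the genes of 7 lists with at least 50 UMIs, in micrometastasis (left) and macrometastasis (right), where each point is a gene, each bar the list's median and the dashed lines 2-fold. MHC II lies to the left in micrometastasis (median -1.25) and to the right of 0 in macrometastasis (0.42), and C1qa, C1qb and C1qc are the 3 complement genes furthest right in micrometastasis.

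In macrometastasis the cells of Tim3-KD held more of the monocyte genes and of Saa3. Of 829 genes tested, 42 were at least 2-fold higher in Tim3-KD (5.07%) and 53 lower (6.39%), with a median log2 ratio of -0.07. Without the 1-gene cells the numbers were 46 and 56 of 717. These shares were below those of micrometastasis. At a score threshold of 2 the numbers were 50 and 58 of 462 genes against 142 and 106 of 1108. There the share of higher genes was still below that of micrometastasis, and the share of lower genes was above it. For 21 of the higher and 19 of the lower genes no single cell gave over 20% of the UMIs, so many of the counted genes rested on few cells. The monocyte genes were the list with most genes in 1 direction, 5 of 9 higher in Tim3-KD (Ly6c2, Ccr2, Vcan, Fn1 and Plac8). Fn1, fibronectin, stood at 163 and 590 CPM, which gives 3.62 as the ratio (3.11 to 4.24). Ly6c2 was at 73.0 and 163 CPM, and Plac8 at 571 and 1204 CPM. In the cells outside the rule Plac8 was at 837 and 1720 CPM and Ly6c2 at 104 and 171 CPM.

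Markers of other cells differed here too. Of 3 Kupffer genes tested 2 were lower (Clec4f, which the rule used, and Cd5l, at 35.3 and 17.1 CPM in 7 cells each), and of 5 mature neutrophil markers 2 were lower (Cxcr2, at 73.0 and 28.3 CPM, and Mmp9, at 164 and 66.4 CPM). Of 6 neutrophil precursor markers Prtn3 was higher, at 64.2 and 162 CPM, as was Ctsg, and Ngp was lower, at 941 and 417 CPM. The B cell gene Ighm was also lower. Ngp turned direction over cells with a C1q UMI, and Cd5l and Ighm did so at a score threshold of 2. The part of these markers of other cells in the results was not tested.

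C1qa, H2-Aa and Tgm2 were each under 2-fold apart here. C1qa was at 1514 and 2442 CPM, a ratio of 1.61 (1.53 to 1.71), and H2-Aa at 2320 and 2853 CPM. Tgm2 was at 72.2 and 130 CPM, higher in Tim3-KD. Saa3 was at 443 and 1468 CPM, at least 2-fold higher as in micrometastasis. With the 1-gene cells left out, C1qa was at 1650 and 2535 CPM, H2-Aa at 2231 and 2949 CPM, Tgm2 at 74.7 and 139 CPM and Saa3 at 348 and 1586 CPM. In the same cells Fn1 was at 169 and 659 CPM and Ly6c2 at 61.9 and 170.2 CPM. Ccl5, a T cell chemoattractant, was at 131 CPM in 15 cells and 641 CPM in 21 cells, and at 148 and 385 CPM without the 1-gene cells.

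Several of the highest ratios came from a handful of cells. Gzma, Prf1 and Nkg7, genes of cytotoxic lymphocytes, had their UMIs in 4, 4 and 5 cells of Tim3-KD, at 237, 36.8 and 63.8 CPM against 10.4, 1.61 and 4.01 CPM in Ctrl. Ctsg, a neutrophil precursor protease, was at 1.61 and 48.7 CPM, with 87.8% of the latter from 1 cell. Cd207, known as langerin, was found in 6 cells of Tim3-KD and 1 of Ctrl. Among the genes lower in Tim3-KD, Hmga1, a chromatin protein, was at 291 CPM in 44 cells of Ctrl and 13.1 CPM in 9 cells of Tim3-KD. Lpl, lipoprotein lipase, was at 54.6 and 12.5 CPM. Phlda1 was at 154 and 38.1 CPM, in 21 and 26 cells. In Ctrl 1 cell held 34.3% of the UMIs of Hmga1, 35.3% of those of Lpl and 30.2% of those of Phlda1.

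Across both sites 549 genes could be compared. Of these, 15 were at least 2-fold in the same direction in Tim3-KD and 7 in opposite directions (Ccl5, Cxcl9, Cxcr2, Mmp9, Mt2, Oasl1 and Slfn4). Cxcl9, an interferon-induced chemokine, was at 17.8 and 60.8 CPM in micrometastasis and at 101 and 32.9 CPM in macrometastasis, each a lower bound as 4, 3, 3 and 1 cells were at the cap. Cxcr2 and Mmp9 are markers of mature neutrophils.

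Between day 3 and day 12 stage and time changed together, and the sites were scaled apart, so only recovered UMIs of the 1786 genes held at both sites were used. The cells themselves were still chosen by scores scaled within each site, so the cut was not on the same scale at both. The part of this choice in the differences between the sites was not tested. In Ctrl, the cells of macrometastasis held less of the monocyte genes and of Tgm2 than those of micrometastasis, and more C1q and cell-cycle transcripts. Of 902 genes tested, 141 were at least 2-fold higher in macrometastasis (15.6%) and 170 lower (18.8%), with a median log2 ratio of -0.05. Without the 1-gene cells these were 128 and 165 of 865. With a filter of 20 UMIs they were 276 and 187 of 1332, so the balance turned with the filter. No single cell gave over 20% of the UMIs for 79 of the higher and 169 of the lower genes. All 8 monocyte genes tested were lower. Ccr2, the receptor that draws monocytes into tissue, was at 571 CPM in micrometastasis and 85.9 CPM in macrometastasis, and Fn1 at 1006 and 163 CPM. Tgm2 was at 619 and 72.2 CPM, a ratio of 0.117 (0.0934 to 0.144). The Tgm2 level of micrometastasis Ctrl also enters the Tim3-KD comparison above, so the values are not independent of it.

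Among the genes of lowest ratio, Hbegf, an EGF receptor ligand, was at 129 and 9.63 CPM. Clec10a, a galactose lectin, was also among them, at 35.6 and 3.21 CPM. C1qa was higher, at 419 and 1514 CPM, as was Ctsl, at 457 and 2854 CPM. Cd63, a lysosomal tetraspanin, was at 217 and 469 CPM. All 5 cell-cycle genes tested were higher (Mki67, Top2a, Birc5, Stmn1 and Ube2c), but Ube2c, which acts in mitotic exit, had 69.0% of its UMIs in macrometastasis from 1 cell. Cenpf, a kinetochore protein outside that list, had 87.2% from 1 cell, which was at the cap. Of 5 mature neutrophil markers 4 were higher (Cxcr2, Mmp9, Il1r2 and Hdc). Il1r2, a decoy receptor, was at 62.1 and 503 CPM, with 348 CPM in macrometastasis without the 1-gene cells. Of the Kupffer list all 3 genes tested were higher (Clec4f, Cd5l and Slc40a1, median log2 ratio 2.60), of which Clec4f was used by the rule and Cd5l had 63.6% of its UMIs in macrometastasis from 1 cell. The 6 Kupffer genes that the rule did not use summed to 27.5 and 111 CPM. Both hepatocyte genes tested were higher, with Alb at 25.2 and 269 CPM and Apoa1 at 8.73 and 58.6 CPM. The part of neutrophil, Kupffer and hepatocyte transcripts in these values, C1q included, was not tested.

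In Tim3-KD, 576 genes could be compared between the sites, of which 53 were at least 2-fold higher in macrometastasis (9.2%) and 126 lower (21.9%). The median log2 ratio of all of them was -0.29, so ratios are read relative to that shift. With scaling by a trimmed mean the counts were 77 and 82, which moved the share of higher genes among those counted from 29.6% to 48.4%. Without the 1-gene cells they were 41 and 125 of 526, and for 24 of the 53 higher and 112 of the 126 lower genes no single cell gave over 20% of the UMIs. Ccl6 was at 4269 and 520 CPM, and Chil3 at 2414 and 285 CPM. Folr2 was at 195 and 5.92 CPM. Of 8 monocyte genes tested, 5 were lower (Ly6c2, F13a1, Vcan, Chil3 and Ms4a4c). C1qa was at 2226 and 2442 CPM and Ctsl at 2607 and 2136 CPM, so neither reached 2-fold. Of the genes higher at day 12, Gzma had no UMI in the 88 cells of micrometastasis and 361 UMIs in 4 cells of macrometastasis. Bcl2l15, a member of the BCL2 family, was at 7.30 CPM in 3 cells and 72.3 CPM in 37 cells. Of the markers of other cells, Il1r2, Alb and Ltf were higher at day 12 and Folr2 and Cd163 lower, and Ltf turned direction without the 1-gene cells. Their part in the results was not tested.

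C1q split the Trem2 Spp1 cells within each library. Cells with at least 10 C1q UMIs (C1qa, C1qb and C1qc together) per 10000 numbered 34 of 264 (12.9%, 9.09 to 17.5%), 37 of 88 (42.0%, 31.6 to 53.0%), 33 of 78 (42.3%, 31.2 to 54.0%) and 54 of 108 (50%, 40.2 to 59.8%). No C1q UMI was found in 183, 45, 35 and 41 cells. The cut was chosen after the values had been seen, and 15, 6, 3 and 2 cells lay near it. Without the 1-gene cells the share of C1q-high cells was 12.98%, 42.5%, 52.6% and 57.5%. Both classes were present in every library. C1q-high cells were fewer than cells without C1q in both micrometastasis libraries and in macrometastasis Ctrl, and more in macrometastasis Tim3-KD. With the 1-gene cells left out they were also more in macrometastasis Ctrl, 30 against 18.

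**Figure D4:**
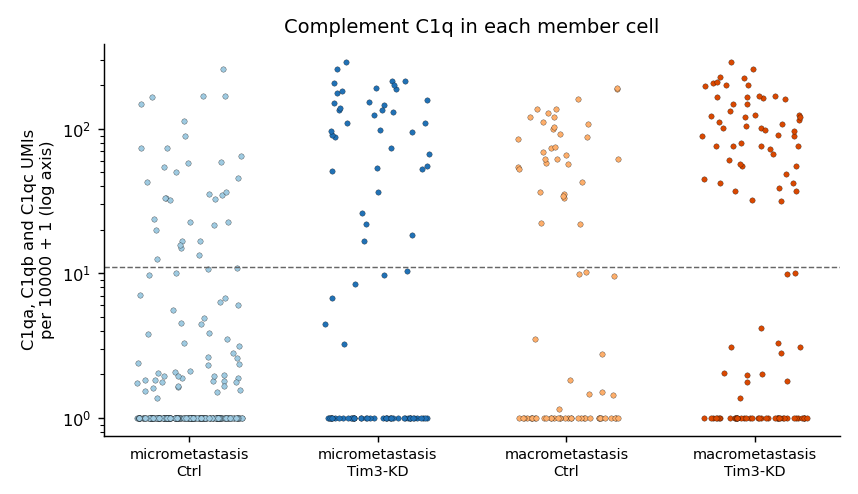
UMIs of C1qa, C1qb and C1qc together per 10000 UMIs, plus 1, on a log axis, with 1 point for each Trem2 Spp1 cell in 4 libraries and a dashed line at the cut of 10 per 10000. Above the line lie 34 of 264 cells in micrometastasis Ctrl and 37 of 88, 33 of 78 and 54 of 108 in the other libraries.

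The classes were compared for 398 genes, of which 15 (3.77%) were at least 2-fold higher in C1q-high cells in all 4 libraries and 11 (2.76%) lower. Since C1q itself defined the classes, C1qa, C1qb and C1qc are 3 of the 15. The other 12 were Cd72, Cd81, Fcgrt, Mertk, Ckb, Acp5, Frmd4b, Ada, Rgs1, Cxcl16, Abca1 and Selenop. Mertk was at 58.3, 211, 141 and 156 CPM in C1q-high cells, against 17.6, 55.9, 28.2 and 21.8 CPM in cells without C1q. Abca1, the cholesterol exporter, was at 63.0, 93.2, 187 and 118 CPM against 8.81, 22.9, 45.6 and 55.5 CPM. Lower were Ly6c1, Ly6c2, Chil3, Hopx, Mmp8, Asprv1, Cd177, Trem1, S100a4, Rhov and Stfa3, among them genes of monocytes and of neutrophils. With the 1-gene cells left out, 13 of the 15 and 6 of the 11 were still at least 2-fold different in all 4 libraries, and Cxcl16, Abca1, Asprv1, Cd177, Trem1, Rhov and Stfa3 were not. Ly6c2 was at 100, 140, 11.9 and 12.8 CPM in C1q-high cells, against 401, 731, 115 and 349 CPM.

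The MHC class II genes did not keep 1 direction between the classes once the 1-gene cells were left out. With all cells their sum was 16995, 7902, 6013 and 9186 CPM, against 9145, 1480, 4172 and 3819 CPM in cells without C1q (6 genes held in micrometastasis and 5 in macrometastasis). In macrometastasis the sums without those cells were 4370 against 5460 CPM in Ctrl, lower in C1q-high cells, and 8448 against 4714 CPM in Tim3-KD, higher in them. The 5460 CPM in Ctrl came from 18 cells, among them single cells of 90059 and 65589 UMIs, which weigh most in such a sum. The part of these cells in the values of that class was not tested. Trem2 and Spp1 are rule genes, so their values are a description only. Trem2 was higher in C1q-high cells in each library, at 520, 526, 322 and 406 CPM against 335, 355, 102.1 and 176 CPM. Spp1 was lower in each, at 602, 694, 13.6 and 128 CPM against 948, 1617, 1551 and 802 CPM. As 17 cells of each macrometastasis library passed on Spp1 alone, the Spp1 values there without the 1-gene cells were 14.3 against 1391 CPM in Ctrl and 133 against 436 CPM in Tim3-KD. Neutrophil precursor markers summed to 51.3, 650, 97.1 and 118 CPM in C1q-high cells and to 160, 229, 2864 and 2048 CPM in cells without C1q (1052 and 520 CPM in macrometastasis without the 1-gene cells), and their part in these differences was not tested.

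Trem2 Spp1 cells were set beside Kupffer-rule and monocyte-rule cells of the same libraries. Kupffer-rule cells had a mean score of Clec4f and Vsig4 of at least 1 and numbered 283, 258, 852 and 961. Monocyte-rule cells had a mean score of Ly6c2, Ccr2, F13a1 and Vcan above 1 and numbered 639, 653, 249 and 415. The genes of these rules and of the Trem2 Spp1 rule differ by choice. The others are described, without a test, by whether they were at least 2-fold different in all 4 libraries.

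Against Kupffer-rule cells, 75 of 888 genes were higher in all 4 libraries (8.45%) and 218 lower (24.5%), with a median log2 ratio of -0.61. Of 7 monocyte genes tested, 7 were higher. F13a1, coagulation factor XIII, was at 250, 361, 60.2 and 111 CPM, against 1.56, 2.50, 0.245 and 1.39 CPM in Kupffer-rule cells. Fn1 was at 1006, 845, 163 and 590 CPM against 5.08, 17.5, 3.30 and 5.01 CPM. Ndrg1, a hypoxia-induced gene, was at 89.0, 167, 128 and 95.3 CPM against 1.95, 2.91, 2.81 and 2.04 CPM, and of the 4 hypoxia genes tested 3 were higher (Bnip3, Ndrg1 and Ero1l). Lower were all 4 iron genes tested (Hmox1, Slc40a1, Spic and Blvrb) and 7 of 10 macrophage genes, C1q among them. C1qa was at 419, 2226, 1514 and 2442 CPM against 8000, 7372, 7029 and 8906 CPM. Slc40a1, the iron exporter ferroportin, was at 11.4, 14.6, 29.7 and 18.4 CPM against 1847, 1313, 1659 and 2092 CPM. No MHC class II gene of the 5 tested differed in all 4 libraries.

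Against monocyte-rule cells fewer genes differed, 69 of 893 higher in all 4 libraries (7.73%) and 18 lower (2.02%), with a median log2 ratio of 0.03. C1qa, C1qb and C1qc led the higher genes, with C1qa at 3.20, 18.8, 11.5 and 26.5 CPM in monocyte-rule cells. Cd63 was at 217, 274, 469 and 414 CPM against 5.12, 6.05, 12.6 and 9.32 CPM. Rhoc, a small GTPase, was at 26.2, 116, 50.6 and 44.7 CPM against 1.02, 0.834, 0.739 and 1.43 CPM. Cxcl16, a membrane-bound chemokine and scavenger receptor, was at 157, 147, 243 and 256 CPM against 14.5, 5.11, 24.0 and 20.9 CPM. Axl, a receptor for dying cells, was at 79.6, 36.5, 56.2 and 69.0 CPM against 3.58, 2.29, 5.92 and 5.88 CPM. Of 7 lipid-associated genes tested, 4 were higher (Lpl, Cd63, Ctsb and Abca1), and of the repair genes Mrc1, Vegfa and Il1rn were among those higher. Markers of other cells were higher too, the hepatocyte gene Alb and 1 of 5 mature neutrophil markers (Cxcr2). Lower were Spn, a surface sialoprotein of white blood cells, at 8.40, 14.6, 7.22 and 5.92 CPM against 29.6, 64.1, 29.2 and 53.0 CPM, and Prtn3, a granule protease, at 87.3, 267, 64.2 and 162 CPM against 490, 2187, 184 and 1554 CPM. Prtn3 is a neutrophil precursor marker, and these markers summed to 697, 4033, 294 and 3057 CPM in monocyte-rule cells. The part of such transcripts in the comparison was not tested.

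**Figure D5:**
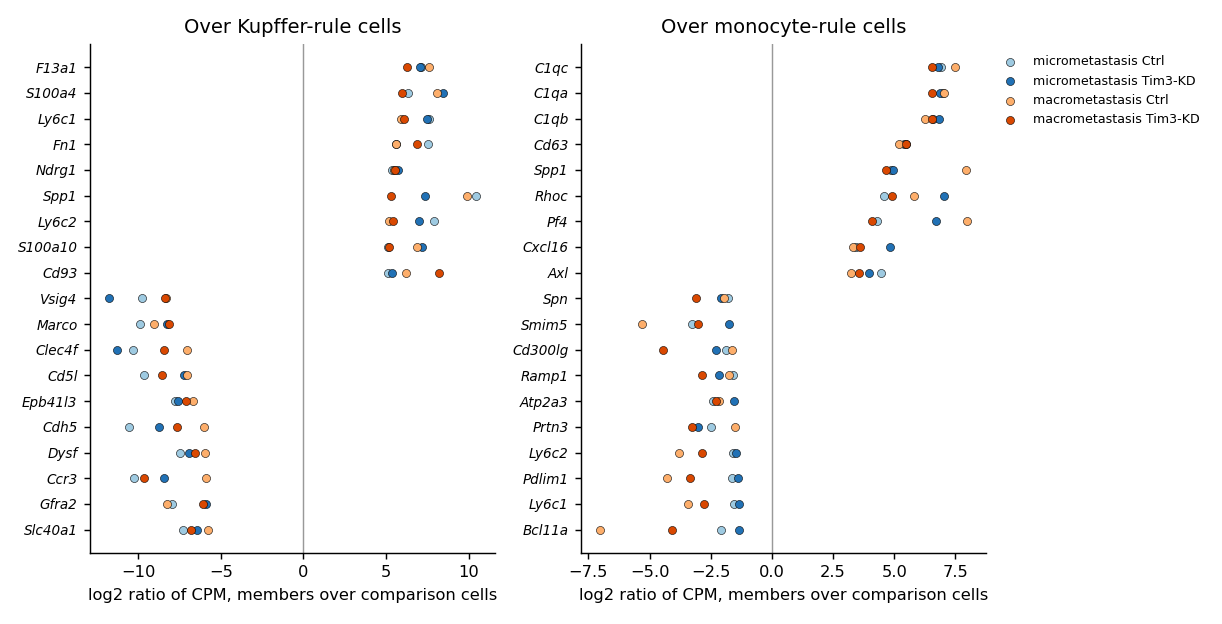
Log2 ratio of CPM in Trem2 Spp1 cells over Kupffer-rule cells (left) and over monocyte-rule cells (right) for 9 of the 10 genes most consistently higher and the 10 most consistently lower, with 1 point for each of 4 libraries. The lowest of the 4 points is 6.28 for F13a1 over Kupffer-rule cells and 6.55 for C1qc over monocyte-rule cells, and Vsig4, Clec4f, Spp1 and Ly6c2 were used to choose cells.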

How the data were processed

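Single-cell 3′ RNA was measured in 6 libraries of sorted liver CD45+ cells. The authors trimmed reads with Trim Galore 0.4.3, mapped them with STAR 2.7.7a to GRCm38, counted UMIs over exons and introns, filtered cells and removed doublets. The deposited values were scores: log-transformed UMIs per 10000, with the total of the cell regressed out, scaled to SD 1 per site over both libraries and capped at 10. The regression and scaling were read from the values and are not stated in the methods. The scores were turned back into UMIs and totals here (Python 3.11.15, numpy 2.4.6, scipy 1.17.1, pandas 2.3.3). Values within 0.05 of a whole number were 99.9999% of those detected in micrometastasis (2669 genes) and 99.997% in macrometastasis (2643 genes). Those at the cap (0.160% and 0.153%) give lower bounds only. On simulated data the step returned the values put in. Comparisons had been planned for recovered UMIs.

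The UMIs of the cells were summed per library and given as CPM over all UMIs. A gene was called 2-fold different with at least 50 UMIs over both sums (20 for the C1q classes), and log2 ratios had 0.5 UMIs added to each sum. Intervals of shares are exact binomial, and those of ratios exact conditional binomial. The members, gene lists and comparisons were chosen with earlier results of these data known. Named were the rule genes and markers, up to 4 genes of each list with the most UMIs, and the 10 genes of highest and of lowest ratio per comparison, leaving out mitochondrial, ribosomal, haemoglobin, immunoglobulin and T cell receptor genes and features without a symbol of their own. Other genes, such as those named beside a count or in the C1q classes, were chosen after their values were seen. Alternatives covered thresholds, filters, scaling, thinning, which cells are counted and, after seeing the data, cells resting on Spp1 alone, genes at the cap and the C1q classes. Gene positions are from GENCODE. Results for some genes are not reported here.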

Additional observations from a re-analysis of the deposited data

Results flagged for a closer look

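The share of Trem2 Spp1 cells differed between Tim3-KD and Ctrl in opposite directions at the 2 sites. It was 3.46 percentage points lower in micrometastasis Tim3-KD (a difference of -3.46) and 0.375 points higher in macrometastasis Tim3-KD. Each value is 1 library against 1 other, so the difference between the sites was not tested.

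Ccl5 also went in opposite directions, with a log2 ratio of Tim3-KD over Ctrl of -1.21 in micrometastasis and 2.29 in macrometastasis. It had a UMI in 14 and 6 cells of micrometastasis and in 15 and 21 cells of macrometastasis, and the difference was not tested. Among the macrometastasis cells with a C1q UMI the log2 ratio was -0.50.

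Cells past the same thresholds were also found in tissue without tumour, which the comparisons do not use. In adjacent Ctrl there were 22 of 1803 cells, 1.22% (0.766 to 1.84%), in the scores of that site's own matrix. In adjacent Tim3-KD there were 0 of 542 cells, where 3 cells would be 0.554% and the exact upper limit is 0.678%. Before the limits on other genes, 32 cells of adjacent Ctrl and 28 of adjacent Tim3-KD passed the threshold on the rule genes, and the limit on Clec4f and Vsig4 took out 7 and 28 of them. The 22 cells carried Trem2 at 165 CPM in 14 of them, Spp1 at 358 CPM and Ccl24 at 227 CPM. Ly6c2 was at 1337 CPM, Plac8 at 2957 CPM and C1qa at 165 CPM, the latter in 1 cell. Clec4f and Vsig4 had no UMI in them.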

How the results depend on the processing

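No paired analysis was possible because each group was 1 library. The lower share of Trem2 Spp1 cells in micrometastasis Tim3-KD kept its direction in every alternative run, with differences of -4.41 points by a UMI threshold, -4.8 at a score threshold of 1 and -2.67 at 2, and the small macrometastasis difference was 1.07 points by the UMI threshold. Counting a gene from 2 UMIs on, at least 2 rule genes were found in 97.0% and 81.8% of cells in micrometastasis Ctrl and Tim3-KD and in 66.7% and 68.5% in macrometastasis. Counts of genes were larger as more low genes were admitted. With a filter of 20 UMIs, 296 genes were higher in micrometastasis Tim3-KD, 103 higher and 141 lower in macrometastasis Tim3-KD, 276 and 154 higher in macrometastasis than in micrometastasis in Ctrl and Tim3-KD, where 187 and 182 were lower, and 117 and 107 higher than in Kupffer-rule and monocyte-rule cells. With no filter, 543 were higher and 224 lower in micrometastasis Tim3-KD, 260 higher and 385 lower in macrometastasis Tim3-KD, and between the sites 496 were higher and 222 lower in Ctrl and 292 higher and 274 lower in Tim3-KD. In Ctrl the share of higher genes between the sites was thus 45.3% as reported, 59.6% at 20 UMIs and 69.1% with no filter, and in Tim3-KD it was 29.6%, 45.8% and 51.6%, so the balance of the counts turned with the filter. Over cells with a C1q UMI only, 103 were higher and 73 lower in micrometastasis Tim3-KD, and 67 and 29 higher in macrometastasis in Ctrl and Tim3-KD. At threshold 2, 45 were higher than in monocyte-rule cells. Between the sites in Tim3-KD, 82 genes were lower in macrometastasis with trimmed mean scaling.

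Single genes that turned direction were few. Over cells with a C1q UMI, log2 ratios of Tim3-KD over Ctrl were -0.50 for Ccl5, -0.12 for Ifi209, 2.36 for Ngp and 0.73 for Olfm4 in macrometastasis and -0.80 for Cxcl10 in micrometastasis, and Ptgs2 was at 0.86 between the sites in Tim3-KD. At threshold 2 they were 0.35 for Cd5l, -1.27 for Cxcl13 and 0.47 for Ighm in macrometastasis and -0.12 for Cxcl10 in micrometastasis, and a mean over cells gave -0.085 for Cxcl10. Ltf, a neutrophil granule gene with log2 ratios of 1.93 and 3.79 between the sites as reported, was at -0.75, -4.44 and -0.80 in Ctrl (without 1-gene cells, with C1q, without cells resting on Spp1 alone) and at -1.96, -1.26 and -1.99 in Tim3-KD (without 1-gene cells, at threshold 2, without cells resting on Spp1 alone). The causes were not tested. Of the other results, 2090 alternatives for single genes moved less than their counting interval and 353 more, with the same direction. Levels under about 50 UMIs, and genes resting on 1 cell, are beyond what this depth can show.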
